A study of Mus musculus with 9 samples.

Results

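Messenger RNAs of growth regulators and cytokines often carry AU-rich elements (AREs), short stretches of A and U in the 3′ untranslated region (3′ UTR) that shorten the life of the message. The 10 genes examined here, chosen by gene symbol, have products that read such elements or act on the messages that carry them. They are *Khsrp*, *Fubp1*, *Fubp3*, *Zfp36*, *Zfp36l1*, *Zfp36l2*, *Elavl1*, *Hnrnpd*, *Tia1* and *Parn*. These are 10 of the 52459 gene symbols quantified and hold 83 of the 131100 annotated transcripts. All 10 passed the filter on low counts, as did 15370 genes in all.

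KHSRP binds AREs through KH domains and recruits deadenylases and the exosome, a complex that degrades RNA from the 3′ end. ZFP36 (tristetraprolin) and its relatives ZFP36L1 and ZFP36L2 also promote decay, HNRNPD (AUF1) binds the same kind of element, ELAVL1 (HuR) tends to stabilise its targets, TIA1 limits their translation, and PARN removes poly(A) tails. FUBP1 and FUBP3 share the KH domain architecture of KHSRP.

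RNA-Seq was performed on NMuMG cells, a mouse mammary gland epithelial line, in 3 groups of 3 libraries. Mock cells carried the empty pBICEP-based vector, EPR cells overexpressed the full BC030870 transcript, a long noncoding RNA that also encodes a small peptide, and EPRSTOPE cells overexpressed a point mutant with a stop at the second codon, from which the peptide is not made. All 3 groups, the mock cells included, were G418-resistant pools of stable transfectants grown in serum, with the insert driven by a CMV promoter, and the libraries of a group are biological triplicates by the study's methods. Whether the triplicates came from separate pools is not stated in the sources used here, so the p-values measure the spread between these libraries. The comparisons ask whether overexpression was accompanied by other levels of the decay factors, and whether EPR and EPRSTOPE cells differed. Those cells differed in the level of the BC030870 RNA as well as in the peptide, and came from different transfections. The part of the RNA level, the peptide and differences between transfectant pools cannot be told apart.

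Levels are given as CPM, the count of a gene in every 1000000 of its library after TMM normalisation, or, where genes are compared with each other, as TPM, the same kind of measure scaled to transcript length. Libraries held 5972457 to 11876435 estimated counts. BC030870 itself had 0, 0 and 2.02 estimated counts in the mock libraries, 271, 214 and 256 in the EPR libraries and 28.3, 39 and 32.6 in the EPRSTOPE libraries, so that the mutant RNA was 5.9-fold less abundant than EPR (log2 fold change of EPR against EPRSTOPE 2.56, 95% interval 2.12 to 3). Of 7 epithelial markers, *Krt8* and *Krt18* were at or above 1440 CPM in every library, whereas *Cdh1* lay between 0.311 and 1.16 CPM in the mock libraries and between 381 and 569 CPM in the others, *Ocln* between 0.163 and 0.466 CPM and between 6.27 and 12 CPM, and *Cldn4* and *Esrp1* were at or below 0.253 CPM throughout. The summed level of 7 mesenchymal markers was 4084 to 4258 CPM in mock, 2178 to 2404 CPM in EPR and 4012 to 4344 CPM in EPRSTOPE libraries, most of it *Vim* and *Fn1*. Single markers differed from this sum, since *Cdh2* (328 to 335, 126 to 140 and 149 to 163 CPM) and *Twist2* (24.7 to 29.8, 8.99 to 11.1 and 8.17 to 15.4 CPM) fell in both overexpressing groups, while *Vim* was 0.25 higher on the log2 scale in EPRSTOPE cells, under the fold cut-off. The summed level of 4 leukocyte markers was 1.55 to 3.83 CPM and that of 3 endothelial markers 11 to 16.4 CPM, nearly all of it *Pecam1*. The mean fragment length, which enters the length correction of TPM, was 412 to 474 nt in the mock libraries, 181 to 283 nt in the EPR libraries and 116, 296 and 387 nt in the EPRSTOPE libraries, and thus moved with the groups. The part of the marker differences in the levels of the decay factors was not tested.

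The decay factors are themselves encoded by messages that differ in AU-rich sequence. In the 3′ UTR of the most abundant full-length coding transcript, the core ATTTA was found in 7 of the 10 genes and the stricter TATTTAT, which contains ATTTA, in 4 (40%). Among the 11259 tested genes with a 3′ UTR of at least 50 nt, 69.7% held ATTTA and 30% held TATTTAT on the transcribed strand. *Zfp36*, *Zfp36l1* and *Zfp36l2* each had 3 copies of TATTTAT in UTRs of 767, 1835 and 1822 nt and *Tia1* had 1 in 1818 nt. *Khsrp* (1642 nt, 1 ATTTA), *Fubp3* (1867 nt, 3 ATTTA) and *Elavl1* (1257 nt, 3 ATTTA) had only the core, and no ATTTA occurred in the windows searched for *Fubp1*, *Hnrnpd* and *Parn* (368, 366 and 890 nt). The stretches below show the element of the ZFP36 family, whose members moved in different directions here, beside that of *Khsrp* and of *Cdkn1a*, the cell cycle inhibitor message studied with EPR. Each is 27 nt of the 3′ UTR, 5′ to 3′ on the transcribed strand (Gencode M21, GRCm38), with TATTTAT or, where the UTR has none, ATTTA in capitals.
Zfp36 (chr7:28376967-28376993, minus strand): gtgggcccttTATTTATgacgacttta
Zfp36l1 (chr12:80108423-80108449, minus strand): tatcaaaacgTATTTATtgccaaacta
Zfp36l2 (chr17:84184915-84184941, minus strand): ctatttaactTATTTATtatcttgtga
Khsrp (chr17:57021586-57021612, minus strand): aatagcaagaATTTAacctctgccccg
Cdkn1a (chr17:29099490-29099516, plus strand): ttgtgttttaATTTAaacgtctcctgt
A match of these letters describes the sequence and is no evidence of binding.

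In mock cells the level per transcript length was highest for *Fubp1*, at 222 ± 4.27 TPM (SD, n = 3), higher than 96.6% of tested genes, and lowest for *Zfp36*, at 3.17 ± 0.499 TPM, above 31.5% of them. *Hnrnpd* (112 ± 14.1 TPM) and *Fubp3* (67.3 ± 4.69 TPM) followed *Fubp1*. *Elavl1* (46.5 ± 3.7 TPM) and *Tia1* (45.6 ± 4.34 TPM) overlapped between libraries and could not be ordered. *Khsrp*, at 25.7 ± 1.95 TPM, overlapped with *Zfp36l1* (24 ± 5.75 TPM), and *Zfp36l1* with *Zfp36l2* (17.6 ± 2.93 TPM), while *Parn* (7.56 ± 0.711 TPM) lay between these and *Zfp36*. The rank of *Hnrnpd* and *Fubp3* rests on short partial models: counting only transcripts of at least 1000 nt, *Hnrnpd* had 11.9 ± 3.1 TPM and *Fubp3* 23.6 ± 4.58 TPM, and *Elavl1* (41.5 ± 4.51 TPM) then ranked next after *Fubp1* (138 ± 9.1 TPM), while *Khsrp* and *Fubp3* overlapped.

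Set against mock cells, 2 of the 10 decay factors passed the test in EPR cells: *Hnrnpd* fell and *Zfp36* rose. Calls required both an edgeR adjusted p below 0.01 (quasi-likelihood test) and a log2 fold change beyond 0.5. By this rule 28.1% of all genes tested were called, 15.2% upward and 12.9% downward, so that 1 call upward and 1 downward among 10 is close to the background. In EPRSTOPE cells none was called against mock, where 28% of all genes were, and limma with voom and DESeq2 likewise called none. With no filter 1 gene was called. Of the 10, 6 had an unadjusted edgeR p under 0.05, beside 8278 of all 15370 genes. With the adjusted p alone, 5 decay factors passed in EPR cells, 1 higher and 4 lower, against 37.4% of all genes (19.4% higher, 18% lower), and 6 in EPRSTOPE cells, 1 higher and 5 lower, against 36.9% (20.1% higher, 16.8% lower). Their median log2 fold change in the main fit was -0.21 in both comparisons, beside -0.01 and -0.04 for all genes. This median was not computed with counts scaled from TPM or with fragment length as a covariate. Values of single decay factors moved in those fits, as given below, so a shared decrease is not established. These 2 comparisons share the mock libraries.

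**Figure D1:**
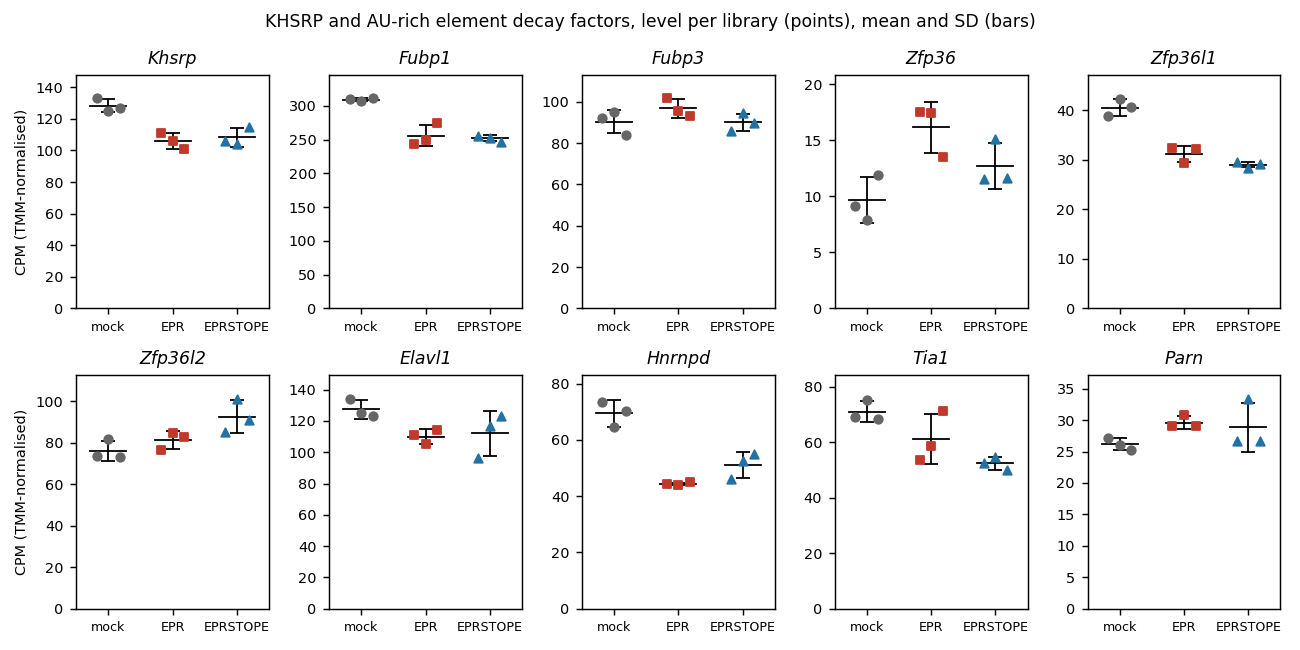
Level of each decay factor in CPM (y axis, from 0) in the 9 libraries. Points are libraries, grey circles for mock, red squares for EPR and blue triangles for EPRSTOPE cells, with the mean and SD of 3 libraries as bars. *Hnrnpd*, *Fubp1*, *Khsrp*, *Zfp36l1* and *Elavl1* lie lower in both overexpressing groups than in any mock library, *Elavl1* only just so in EPRSTOPE cells. *Zfp36* lies higher in the 3 EPR libraries.

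*Khsrp*, on chromosome 17 of GRCm38 from 57021051 to 57031522, is quantified from 1 coding transcript. It stood at 133, 125 and 127 CPM in the mock libraries, 111, 106 and 101 CPM in the EPR libraries and 106, 104 and 115 CPM in the EPRSTOPE libraries. Every overexpressing library was thus below every mock library, while EPR and EPRSTOPE overlapped. The log2 fold change against mock was -0.27 in EPR cells (95% interval -0.41 to -0.13, edgeR adjusted p = 0.0036) and -0.24 in EPRSTOPE cells (-0.38 to -0.1, edgeR adjusted p = 0.008), a difference of 17.1% and 15.3% that does not reach the fold cut-off. The log2 difference between EPR and EPRSTOPE was -0.03 (-0.17 to 0.11). In TPM, *Khsrp* overlapped between all groups (24.8, 27.9 and 24.3 in mock, 23.4, 24.3 and 20.2 in EPR, 23.6, 26.1 and 20.7 in EPRSTOPE cells). With counts scaled from TPM the log2 fold changes against mock were 0.02 and 0.04, and with the fragment length of the library as a covariate they were -0.18 and -0.17 (edgeR adjusted p = 0.16 in both). Whether the CPM of *Khsrp* differs because of the fragment lengths was not tested beyond these fits. In bulk RNA, fewer cells that express a gene and less RNA per cell cannot be told apart.

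The KH-domain relatives *Fubp1* and *Fubp3* differed from each other in CPM. *Fubp1*, best known as an activator of *Myc* transcription, had 310, 307 and 311 CPM in mock, 244, 250 and 274 CPM in EPR and 256, 253 and 247 CPM in EPRSTOPE libraries. No library of either overexpressing group reached the mock range. Its log2 fold changes against mock were -0.27 ± 0.06 (SE, edgeR adjusted p = 0.0015) and -0.3 ± 0.06 (edgeR adjusted p = 0.0009), under the fold cut-off, and remained between -0.47 and -0.24 in the 19 alternative fits of EPR cells. *Fubp1* was also lower in TPM, with 224 to 226 TPM in 2 mock libraries and 218 TPM in the other, against 109 to 162 TPM in the overexpressing libraries. *Fubp3* overlapped between all groups, at 84.1 to 95.1 CPM in mock, 93.2 to 102 CPM in EPR and 86.1 to 94.4 CPM in EPRSTOPE cells, and its log2 fold changes were 0.1 (95% interval -0.05 to 0.25) and 0 (-0.15 to 0.15). In TPM, however, *Fubp3* was lower in EPR cells too, at 45.3 to 55 TPM against 64.3 to 72.7 TPM in mock, and with counts scaled from TPM its log2 fold change was -0.25 (edgeR adjusted p = 0.31).

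Among the tristetraprolin family, *Zfp36* and *Zfp36l1* differed from mock in opposite directions. *Zfp36* (chromosome 7 from 28376784 to 28380253), the tristetraprolin gene and an early response gene, rose from 9.17, 7.91 and 11.9 CPM in mock to 17.5, 17.4 and 13.5 CPM in EPR libraries. The groups did not overlap, and the log2 fold change was 0.73 (95% interval 0.33 to 1.12, edgeR adjusted p = 0.0055). In EPRSTOPE libraries it had 11.5, 15.1 and 11.6 CPM, which overlapped with both other groups, with a log2 fold change of 0.39 (-0.01 to 0.8, edgeR adjusted p = 0.1). EPR and EPRSTOPE were not shown to differ (0.33, -0.06 to 0.73). The counts behind these values are low, 59.5 to 200 per library, and the call was lost without mock library 203 or 204 or EPR library 206 or 207, where the log2 fold change was 0.59 to 0.68 (edgeR adjusted p between 0.019 and 0.028), with coding transcripts alone (0.7, edgeR adjusted p = 0.011) and with fragment length as a covariate (0.77, edgeR adjusted p = 0.068).

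*Zfp36l1* was lower in both overexpressing groups, with 38.8, 42.2 and 40.6 CPM in mock, 32.3, 29.4 and 32.1 CPM in EPR and 29.5, 28.4 and 29.2 CPM in EPRSTOPE libraries. Neither group overlapped with mock. The log2 fold changes were -0.37 (95% interval -0.54 to -0.21, edgeR adjusted p = 0.0016) and -0.48 (-0.66 to -0.31, edgeR adjusted p = 0.00027), the latter just inside the fold cut-off, which it crossed without mock library 203 (-0.52), with no filter (-0.5) and with coding transcripts alone (-0.56). With counts scaled from TPM they were -0.15 (edgeR adjusted p = 0.58) and -0.53 (edgeR adjusted p = 0.048), and in TPM the mock and EPR libraries overlapped. *Zfp36l2* had 73.6, 81.8 and 73.3 CPM in mock, 76.5, 84.7 and 82.7 CPM in EPR and 85.4, 101 and 91.1 CPM in EPRSTOPE libraries. In CPM it lay above mock in all 3 EPRSTOPE libraries (log2 fold change 0.28, 0.11 to 0.45, edgeR adjusted p = 0.0096), under the fold cut-off, and overlapped with mock in EPR cells (0.09, -0.08 to 0.26). The EPRSTOPE value was 0.21 with coding transcripts (edgeR adjusted p = 0.047), 0.25 with long transcripts (0.022) and 0.31 with the covariate (0.048). In TPM the EPRSTOPE libraries (18.8 to 28.9) overlapped with mock (15.8 to 21).

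The share of each gene in the TPM of the family was also compared. *Zfp36* made up 6.68%, 5.42% and 9.89% of the summed TPM of the 3 genes in the mock libraries and 13.4%, 13.8% and 10.8% in the EPR libraries, without overlap (exact permutation test, two-sided, p = 0.1, the smallest that 3 against 3 libraries allow). Of the same sum, *Zfp36l1* made up 53.2 ± 4.89% in mock cells, 42.6 ± 2.99% with EPR and 35.2 ± 6.85% with EPRSTOPE (SD, n = 3 each), and *Zfp36l2* 39.5 ± 2.95%, 44.7 ± 3.11% and 54.2 ± 5.18%. The mock and EPRSTOPE libraries did not overlap in either share (exact permutation test, p = 0.1 for both). These shares rest in part on short models of *Zfp36l1*, which took 52 ± 12% of its TPM in mock and 37.5 ± 18.7% in EPRSTOPE cells. From transcripts of at least 1000 nt *Zfp36l1* had 9.75 to 12.5 TPM in mock and 7.24 to 11.4 TPM in EPRSTOPE libraries, which overlapped, and *Zfp36l2* was the higher of the pair in mock cells as well (17.6 ± 2.93 against 11.1 ± 1.36 TPM).

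**Figure D2:**
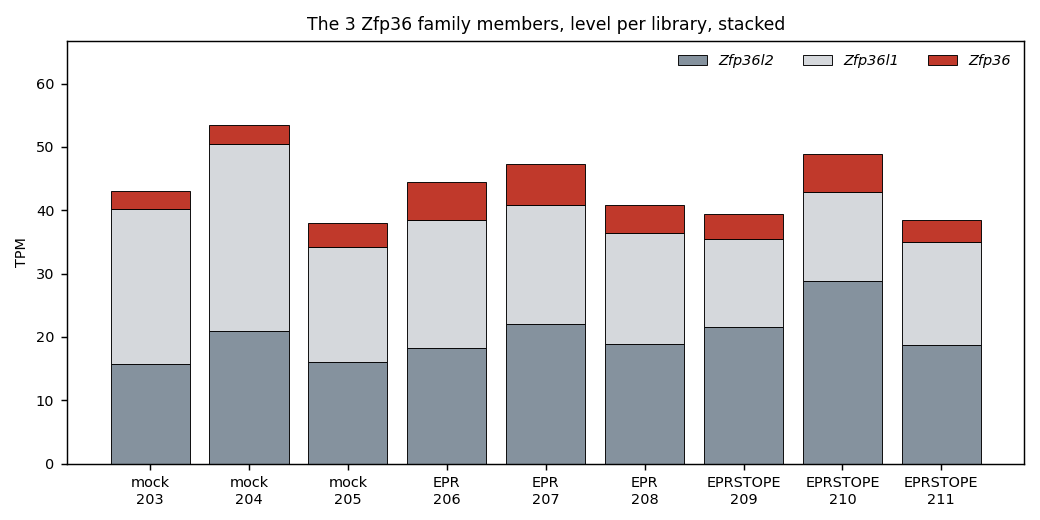
Stacked TPM of *Zfp36l2* (dark grey), *Zfp36l1* (light grey) and *Zfp36* (red) in each of the 9 libraries, with the library number under each bar. The *Zfp36* segment is 4.42 to 6.53 TPM in the EPR libraries and 2.88 to 3.75 TPM in the mock libraries, while *Zfp36l1*, short models included, is the largest segment in the mock libraries and *Zfp36l2* in the EPRSTOPE libraries.

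*Hnrnpd*, on chromosome 5 from 99955935 to 99978938, showed the largest decrease among the decay factors in EPR against mock cells. Its 3 mock libraries had 73.6, 64.4 and 70.2 CPM, the EPR libraries 44.3, 44.1 and 44.9 CPM and the EPRSTOPE libraries 46.1, 52.4 and 54.9 CPM. The 3 groups did not overlap with each other. Against mock it fell by 35.9% in EPR cells (log2 fold change -0.64, 95% interval -0.81 to -0.47, edgeR adjusted p = 2.8e-05), and was 26.1% lower in EPRSTOPE cells (-0.44, -0.61 to -0.26, edgeR adjusted p = 0.00063), under the fold cut-off. EPR against EPRSTOPE gave -0.21 (-0.38 to -0.03, edgeR adjusted p = 0.072), which did not pass. The call in EPR cells held without any single library (-0.7 to -0.61), but it was lost where only transcripts of at least 1000 nt were counted (-0.42, edgeR adjusted p = 0.02) and with fragment length as a covariate (-0.45, edgeR adjusted p = 0.0049, under the fold cut-off). The same fits gave -0.19 (edgeR adjusted p = 0.27) and -0.28 (edgeR adjusted p = 0.032) in EPRSTOPE cells.

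The reads of *Hnrnpd* fell mostly on short models. Of its 11 transcripts, a 493-nt coding fragment took 44.8 ± 1.65% of the gene's TPM in mock cells, 44.1 ± 5.73% with EPR and 33.7 ± 5.4% with EPRSTOPE (SD, n = 3 each), and a 737-nt model labelled as a nonsense-mediated decay target 22.3 ± 3.8%, 19.4 ± 3.22% and 25.3 ± 8.45%. Transcripts under 1000 nt took 56.5% to 62.2% of its estimated counts in the mock libraries, 46% to 59.2% in EPR and 41% to 62.6% in EPRSTOPE libraries. The lowest share, 41%, was that of EPRSTOPE library 209, which had the shortest fragments of all (116 nt), and the highest, 62.6%, that of EPRSTOPE library 211 (387 nt). From the longer transcripts alone *Hnrnpd* had 9.97, 15.5 and 10.3 TPM in mock, 7.84, 9.56 and 11.4 TPM in EPR and 12.7, 17.6 and 7.85 TPM in EPRSTOPE libraries, and the groups overlapped. The part of fragment length in the difference of *Hnrnpd* was not tested further.

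**Figure D3:**
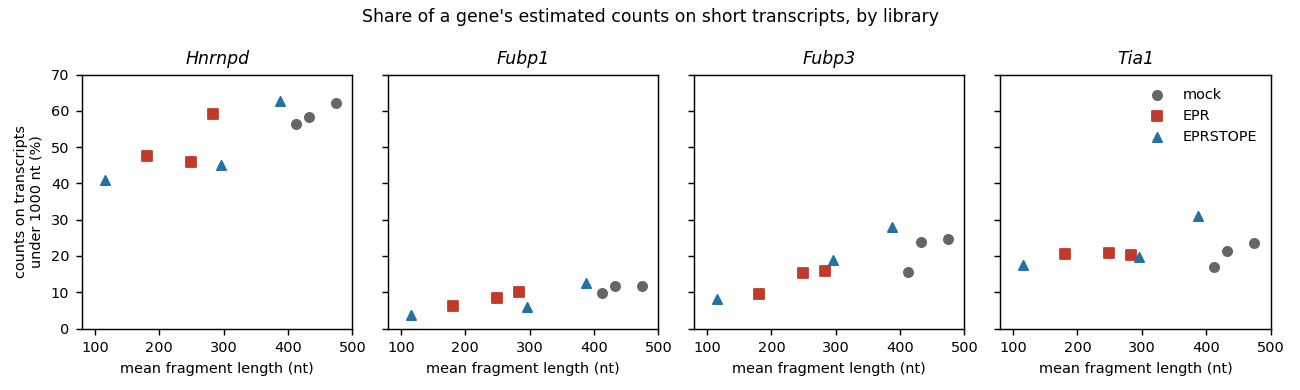
Percentage of a gene's estimated counts assigned to its transcripts under 1000 nt (y axis) against the mean fragment length of the library in nt (x axis) for *Hnrnpd*, *Fubp1*, *Fubp3* and *Tia1*. Each point is 1 of 9 libraries, grey circles for mock, red squares for EPR and blue triangles for EPRSTOPE cells. For *Hnrnpd* the share ranges from 41% to 62.6%, and in EPRSTOPE cells it is higher in the library with 387-nt fragments than in that with 116-nt fragments for all 4 genes.

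In CPM, the translational regulator *Tia1* separated from mock in EPRSTOPE but not in EPR libraries. It had 69, 75.3 and 68.5 CPM in mock, 53.7, 58.7 and 71.2 CPM in EPR and 52.5, 54.7 and 49.8 CPM in EPRSTOPE libraries. EPR library 208 lay within the mock range in CPM. In TPM both overexpressing groups lay below mock, at 31.6, 38.5 and 40.5 in EPR and 28, 37.4 and 34.1 in EPRSTOPE libraries. The mock libraries had 46.2, 49.7 and 41 TPM. The log2 fold change against mock was -0.21 (95% interval -0.42 to 0, edgeR adjusted p = 0.088) in EPR and -0.44 (-0.65 to -0.23, edgeR adjusted p = 0.0027) in EPRSTOPE cells, the latter under the fold cut-off, and the difference between them was 0.23 (0.01 to 0.44, edgeR adjusted p = 0.11). Only 15 ± 2.38% of *Tia1* TPM in mock cells, 12.9 ± 3.68% with EPR and 18 ± 5.74% with EPRSTOPE (SD, n = 3 each) came from coding transcripts. The remainder was spread over its other models, of which a retained-intron transcript of 877 nt took 10.4 ± 4.89% in mock cells. With coding transcripts alone the log2 fold change against mock was -0.62 in EPR cells (edgeR adjusted p = 0.076). It was -0.45 in EPRSTOPE cells (edgeR adjusted p = 0.19). EPR against EPRSTOPE then gave -0.17 (edgeR adjusted p = 0.7), the other sign from the main fit.

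*Elavl1* and *Parn* passed neither threshold in any comparison. The HuR gene *Elavl1* had 134, 125 and 123 CPM in mock, 111, 105 and 114 CPM in EPR and 96.1, 117 and 123 CPM in EPRSTOPE libraries, where the highest EPRSTOPE value lay just under the lowest mock value. Its log2 fold changes against mock were -0.21 (95% interval -0.39 to -0.02, edgeR adjusted p = 0.061) and -0.18 (-0.37 to 0, edgeR adjusted p = 0.096), and turned to 0.05 and 0.03 with fragment length as a covariate. *Parn* had 27.2, 26 and 25.3 CPM in mock, 29, 30.8 and 29 CPM in EPR and 26.6, 33.4 and 26.7 CPM in EPRSTOPE libraries, with log2 fold changes of 0.18 (-0.04 to 0.4) and 0.15 (-0.07 to 0.38). Its EPR libraries lay above all mock libraries and its EPRSTOPE libraries did not.

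Counted over all 10, the EPR libraries did not overlap with mock for 7 genes, 5 lower and 2 higher, against 57.8% of all genes (28.9% in each direction), and the EPRSTOPE libraries for 7, 6 lower and 1 higher, against 56.5% (28.3% lower and 28.2% higher). Between EPR and EPRSTOPE 2 of the 10 did not overlap, *Hnrnpd* and *Zfp36l2*, both lower in EPR, against 43% of all genes (22.2% lower and 20.8% higher). None was called in that comparison, where 13.2% of all genes were, by edgeR, limma or DESeq2. Of the 10, 3 had an unadjusted edgeR p under 0.05, beside 6119 of all 15370 genes. The largest difference was 0.33 on the log2 scale, that of *Zfp36*. The intervals of *Khsrp*, *Fubp1*, *Fubp3*, *Zfp36l1*, *Elavl1* and *Parn* for EPR against EPRSTOPE all lay between -0.21 and 0.28.

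**Figure D4:**
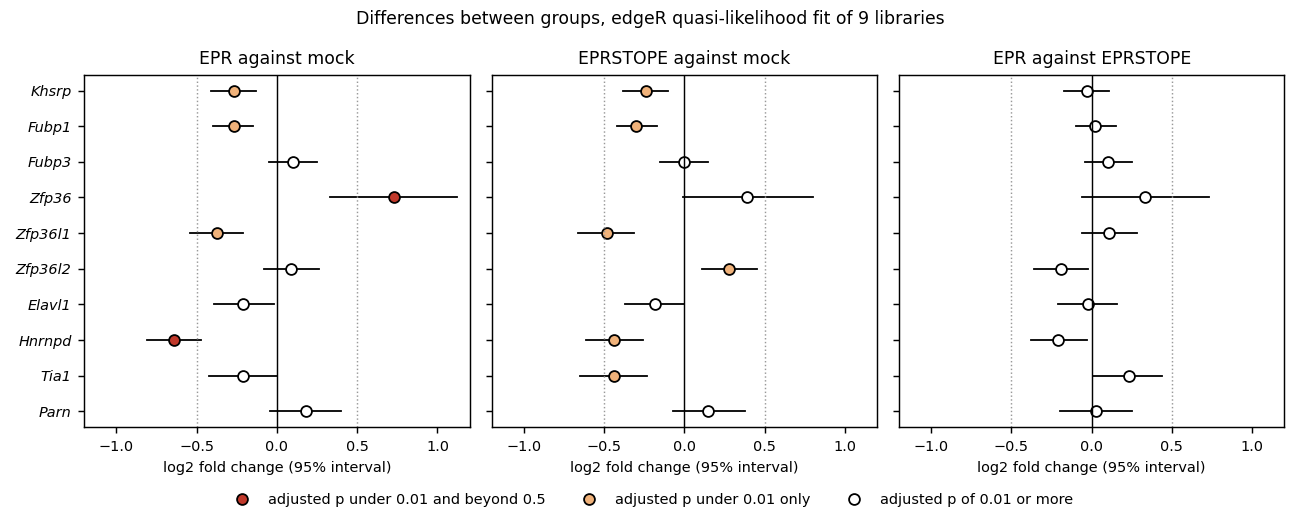
Log2 fold changes of the 10 decay factors (x axis, points with 95% intervals) in the 3 comparisons, from edgeR fitted to 9 libraries. Red points passed both thresholds, orange points the adjusted p alone and white points neither, and dotted lines mark the fold cut-off of 0.5. *Hnrnpd* (-0.64) and *Zfp36* (0.73) pass in EPR against mock, and no gene passes in EPR against EPRSTOPE.

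At the level of single transcripts, 63 transcripts of the 10 genes were tested and none was called in any comparison, where 4.07%, 4.64% and 0.854% of the 45412 transcripts were. Unadjusted p-values under 0.05 were found for 8, 10 and 4 of them. No share of all transcripts is given for that rule or for DESeq2, so these counts carry no background. DESeq2 called 1 in each of the comparisons with mock. These were *Zfp36*-202 (log2 fold change 1.1, DESeq2 adjusted p = 0.0019) and *Tia1*-225 (-1.27, DESeq2 adjusted p = 0.0033). *Zfp36* has 2 coding transcripts, and *Zfp36*-202 (2465 nt) took 60.9 ± 4.74% of the gene's TPM in mock cells, 75.3 ± 8.71% with EPR and 72.1 ± 6.43% with EPRSTOPE (SD, n = 3 each). In edgeR it differed by 1.13 ± 0.28 (SE) in EPR against mock cells (adjusted p = 0.043). *Fubp1* was split between a full-length form of 2374 nt, with 21.4 ± 2.93%, 29.3 ± 5.2% and 35 ± 14.2% in the same order, and a 1040-nt form with 32.9 ± 1.51%, 24.6 ± 1.92% and 27.1 ± 8.04%. Of *Elavl1*, the 2317-nt coding transcript took 81.6% to 82.8% in all groups.

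Genes that act with the decay factors or on their targets were followed in 5 lists. Of 21 tested RNA-binding proteins that also act on mRNA stability, 4 were called against mock in EPR cells and 4 in EPRSTOPE cells (19% in each, beside 28.1% and 28% of all genes), with list medians of -0.07 and -0.06. The 4 were *Igf2bp3*, an oncofetal mRNA stabiliser (mock cells 2.6 ± 0.988 CPM, EPR cells 28.6 ± 1.14 CPM, EPRSTOPE cells 25.6 ± 2.1 CPM, SD, n = 3 each), *Zc3h12a*, the endonuclease Regnase-1 (15.7 ± 0.249, 49.4 ± 2.06 and 61.5 ± 8.01 CPM), *Cirbp*, a cold-inducible RNA-binding protein (6.32 ± 0.688, 11 ± 1.86 and 13.7 ± 2.32 CPM), and *Celf2*, which binds GU- and AU-rich sites (32 ± 1.84, 8.42 ± 1.06 and 9.06 ± 1.84 CPM). The first 3 rose and *Celf2* fell. None of the 21 was called between EPR and EPRSTOPE by edgeR, limma or DESeq2, where edgeR called 13.2% of all genes. An unadjusted edgeR p under 0.05 was found for 8 of the 21, beside 6119 of all 15370 genes. An adjusted p under 0.05 was found for 5, with no share of all genes given at that threshold.

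The machinery to which these factors deliver mRNAs was called more often downward than upward in EPR cells. Of 54 tested genes of deadenylation, decapping and the exosome, 14 fell and 5 rose in EPR against mock cells (25.9% and 9.26%, beside 12.9% and 15.2% of all genes), with a median of -0.17. In EPRSTOPE cells 9 fell and 4 rose (16.7% and 7.41%, beside 12.4% and 15.6% of all genes), with a median of -0.14, but the split there was 6 up and 6 down with counts scaled from TPM and 5 and 5 with transcripts of at least 1000 nt. The decreases included *Lsm5* (17.5 ± 2.82, 6.22 ± 1.23 and 6.78 ± 1.42 CPM in the same order) and *Lsm3* (45.1 ± 3.83, 21.3 ± 0.759 and 20.7 ± 0.976 CPM), subunits of the Lsm ring that supports decapping and also of the ring bound to U6 snRNA. The exosome genes *Exosc8* (log2 fold change -1.05 in EPR and -0.88 in EPRSTOPE cells), *Exosc2* and *Exosc3* (-0.75 and -0.56 in EPR cells) and the scavenger decapping enzyme *Dcps* (-0.91 and -0.93) fell as well. The increases were led by *Tob1* and *Btg2*, antiproliferative proteins that bind the CCR4-NOT deadenylase, which went from 10.6 ± 1.74 CPM to 95.3 ± 7.84 CPM with EPR and 65 ± 2.71 CPM with EPRSTOPE, and from 8.13 ± 0.484 CPM to 68.3 ± 2.6 and 39 ± 5.36 CPM. *Btg1*, *Tob2* and *Noct* rose too in EPR cells (0.51, 0.62 and 0.58). The 5 genes that rose in EPR cells are thus 4 of the BTG/Tob family and a circadian member of the deadenylase-like nucleases, while the 14 that fell were 3 exosome subunits, 8 genes of decapping and the Lsm rings, and *Cnot9*, *Pan2* and *Pabpc4*, of deadenylation and poly(A) binding. Genes of these lists named without CPM values were chosen after their values were seen.

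KHSRP takes part in microRNA processing by promoting the maturation of some precursors. Of 11 tested genes of microRNA processing, none was called in any comparison by edgeR, limma or DESeq2. An unadjusted edgeR p under 0.05 was found for 7 of the 11 in EPR cells, 6 in EPRSTOPE cells and 5 in the direct comparison. Of all 15370 genes, 8331, 8278 and 6119 had one, in the same order. An adjusted p under 0.05 was found for 7, 4 and 4 of the 11, with no share of all genes given at that threshold. *Tarbp2*, a partner of Dicer, lay just inside the fold cut-off in EPR cells (0.49, edgeR adjusted p = 0.0016). Of 17 tested kinases and other regulators of the decay factors, 6 were called in EPR against mock cells, 5 in EPRSTOPE against mock and 5 in EPR against EPRSTOPE (35.3%, 29.4% and 29.4%, beside 28.1%, 28% and 13.2% of all genes). The p38 pathway, which phosphorylates KHSRP and ZFP36, had called members in both directions and others not called. Against mock, *Mapk14* (-0.13 in EPR and -0.07 in EPRSTOPE cells) and *Mapkapk2* (0.07 and 0.24) were not called. Nor were *Map2k3* (-0.22 and 0.11) and *Mapk11* (0.27 and -0.42). *Map2k6*, an activator of p38, rose from 11.6 ± 0.69 CPM to 42.5 ± 3.74 CPM with EPR and stood at 13.1 ± 3.49 CPM with EPRSTOPE, and EPR and EPRSTOPE differed (log2 fold change 1.72, edgeR adjusted p = 5.5e-06). *Mapkapk3*, a kinase downstream of p38, rose from 0.475 ± 0.153 CPM to 7.77 ± 0.653 and 15.5 ± 1.69 CPM and was lower in EPR than in EPRSTOPE cells (-1, edgeR adjusted p = 0.00076). *Mapk12*, the gene of p38 gamma, fell by 3.09 and 2.2 on the log2 scale, at low levels throughout. The phosphatase gene *Dusp1*, which switches p38 off, rose from 22.3 ± 1.13 CPM to 43.3 ± 1.66 and 49.7 ± 1.81 CPM, and *Ywhaz*, a 14-3-3 protein that binds phosphorylated KHSRP and ZFP36, from 462 ± 26.5 CPM to 814 ± 34.5 and 886 ± 47.7 CPM.

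mRNAs that such factors are known to act on were called more often upward than downward. Of 38 tested ARE-bearing mRNAs, 19 rose and 1 fell in EPR against mock cells (50% and 2.63%, beside 15.2% and 12.9% of all genes) and 21 rose and 2 fell in EPRSTOPE against mock cells (55.3% and 5.26%, beside 15.6% and 12.4%). The list medians were 0.45 and 0.69 on the log2 scale, beside -0.01 and -0.04 for all genes. *Cdkn1a*, the p21 cell cycle inhibitor and the message that the study followed, is in this list, as is *Dusp1*, and the list was put together with results on these cells known, so its direction is not independent evidence. *Cdkn1a* had 6.37, 8.02 and 7.49 CPM in mock, 103, 94.3 and 93.2 CPM in EPR and 75.9, 84.7 and 78.8 CPM in EPRSTOPE libraries. Its log2 fold changes were 3.71 ± 0.09 and 3.44 ± 0.09 (SE, edgeR adjusted p = 3.3e-11 and 5.4e-11), and EPR exceeded EPRSTOPE by 0.28 (95% interval 0.12 to 0.44, edgeR adjusted p = 0.014), which did not pass.

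Chemokine messages with AREs were among those that rose. *Cxcl5*, a neutrophil chemokine, had 0.977 to 2.64 CPM in mock libraries and 2584 to 2784 CPM in the others. *Cxcl1* rose from 87.9 ± 14.9 CPM to 822 ± 61.5 in EPR and 601 ± 34.9 in EPRSTOPE cells, and *Ccl20* from 14.9 ± 1.62 CPM to 123 ± 5.76 and 66.7 ± 15.7 CPM. Among cytokines, *Il6* was detected in 1 of the mock libraries, at 0.163 CPM, and had 3.36 to 5.41 CPM in EPR and 12.2 to 12.4 CPM in EPRSTOPE libraries. The collagenase gene *Mmp13* rose from 107 ± 6.56 CPM to 855 ± 34.3 in EPR and 3804 ± 317 in EPRSTOPE cells. Between EPR and EPRSTOPE, 8 of the 38 were lower and 2 higher in EPR (21.1% and 5.26%, beside 6.35% and 6.86% of all genes), among them *Mmp13* (-2.15), the urokinase gene *Plau* (-1.8), *Egr1* (-1.45) and *Il6* (-1.4). *Jun* was the gene that fell in EPR cells (-0.77), and *Jun* (-0.67) and *Edn1* (-1.44) fell in EPRSTOPE cells.

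**Figure D5:**
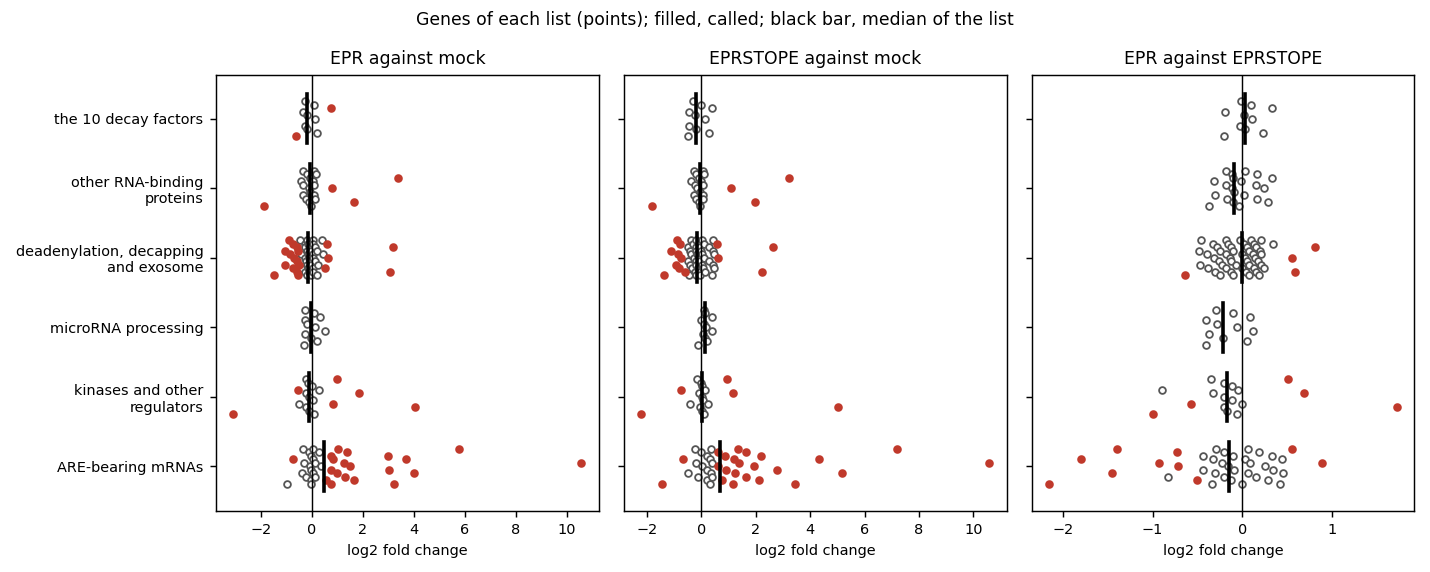
Log2 fold changes (x axis) of each tested gene (points) in the 10 decay factors and the 5 lists, in the 3 comparisons. Filled red points were called, open points were not, and black bars mark the median of the list. In the main fit, which is shown, the ARE-bearing mRNAs have medians of 0.45 and 0.69 against mock, while the decay factors have -0.21 in both.

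All tested genes were also sorted by the element alone, as a description with no test. Of the 38 tested ARE-bearing mRNAs, 35 had a usable 3′ UTR, of which 32 (91.4%) held ATTTA and 27 (77.1%) TATTTAT, so that 3 of the list had neither in the window searched. Of all 421 tested genes with 3 or more copies of TATTTAT, 14.7% were called up and 15.7% down in EPR against mock cells, beside 18.2% and 14.5% of the 7876 genes with none, while of those with 1 and 2 copies 18.1% and 20% were called up. The medians were -0.04 and 0. In EPRSTOPE against mock cells the shares were 17.8% and 15% beside 19.1% and 13.3%, with 19.4% and 18.4% called up for 1 and 2 copies, with medians of 0 and 0.01. The 3′ UTRs of the first class were longer, with a median of 3341 nt beside 802 nt. The messages of *Csf3* and *Ccl20* rose in both groups. They were picked for display from a list made with earlier results known, and do not stand for all genes with the element. Their element is shown here (27 nt of the 3′ UTR, TATTTAT in capitals).
Csf3 (chr11:98702998-98703024, plus strand): ctctatttaaTATTTATgcatatttaa
Ccl20 (chr1:83118909-83118935, plus strand): tattttatgtTATTTATagatctgaat
*Csf3* had 0.422 to 0.733 CPM in mock, 6.35 to 11.6 CPM in EPR and 7.47 to 15.4 CPM in EPRSTOPE libraries.

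The genes whose CPM followed that of *Khsrp* most closely over the 9 libraries were *Cdr2*, BC051077 and *Urb1*, with Pearson's r of 0.98, 0.97 and 0.97 on log2 CPM among the 9322 genes averaging 10 CPM or more. All 3 were lower in every EPR and EPRSTOPE library than in every mock library, for example *Cdr2* with 48.9, 44.6 and 46.9 CPM in mock, 25.7, 24 and 21.5 CPM in EPR and 25.4, 21.9 and 31.1 CPM in EPRSTOPE libraries. For *Zfp36*, which had the largest difference of the 10, they were *Zwint*, 3110002H16Rik and *Otud5* (r of 0.94, 0.94 and 0.93). These values describe a shared order of libraries that fall into 3 groups, and carry no test.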

How the data were processed

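Total RNA of 9 NMuMG libraries was sequenced after a stranded TruSeq preparation. The authors quantified reads with kallisto 0.43.1 against Gencode vM15, and the build named for mouse is GRCm38.p5. The deposited values are estimated counts and TPM per transcript, and no other per-sample column was left out. A STAR and HTSeq quantification that the methods describe was not used here.

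Estimated counts were summed per gene symbol, rounded and filtered to at least 1 CPM in 3 or more libraries. They were tested with edgeR 4.0.16 (TMM, quasi-likelihood F test, R 4.3.3) in 1 fit of 9 libraries, with Benjamini-Hochberg adjustment over the 15370 genes, and likewise over 45412 transcripts. Genes were called where the adjusted p was below 0.01 and the log2 fold change exceeded 0.5 in size. Fold changes are on the log2 scale with the standard error of the fit, and the scripts were tested on simulated data. TPM shares were compared by the exact permutation test, two-sided. Alternatives were limma 3.58.1 with voom, DESeq2 1.42.0, other size factors, filters, count scales, transcript sets and thresholds, fits of 2 groups, and leaving out each library. Replicates differed beyond sampling noise (chi-square per degree of freedom 4.56 to 9.66), so none was merged. A count of 3 corresponds to 0.253 to 0.502 CPM, which covers counting error only.

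The mean fragment length was estimated from the effective lengths of transcripts of at least 3000 nt. 3′ UTRs were read from Gencode M21 on GRCm38. Besides the 10 genes, BC030870 and *Cdkn1a*, the text names genes from among up to 4 called genes per list and comparison, those with the largest change at 10 CPM or more, transcripts with at least 10% of a gene's TPM, and the 3 genes closest in pattern to *Khsrp* and to the gene with the largest difference. The values of 1 gene are not reported here. Genes named beyond this rule were chosen after their values were seen. The 10 genes, the 5 lists and the 4 marker lists were chosen with earlier results of these data known. Whether the counting used strand is not given in the sources used here, so reads of overlapping antisense genes may not be told apart.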

Additional observations from a re-analysis of the deposited data

Results flagged for a closer look

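The change from mock differed between EPR and EPRSTOPE cells for the genes of the lists given here, tested as the edgeR contrast of EPR against EPRSTOPE, and none of the 10 decay factors was among them. In the decay machinery, the difference on the log2 scale was 0.81 for *Btg2*, 0.55 for *Tob1* and 0.58 for the exosome gene *Exosc1*, all higher in EPR cells, and -0.64 for the exonuclease gene *Dis3l*. Among regulators it was 1.72 for *Map2k6*, 0.69 for *Mapk11*, -0.57 for *Atm* and -1 for *Mapkapk3*. Among ARE-bearing mRNAs it was 0.89 for *Ccl20*, -2.15 for *Mmp13*, -1.80 for *Plau*, -1.45 for *Egr1* and -1.40 for *Il6*. The mesenchymal markers *Fstl1* (-6.15), *Fn1* (-1.05) and *Vim* (-0.83) were lower in EPR cells. The peptide, the level of the BC030870 RNA and differences between transfectant pools cannot be told apart in this contrast.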

How the results depend on the processing

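No paired analysis was possible because the groups share no replicate numbers. Of the values for single decay factors, 606 kept their side of the threshold under an alternative, 14 were newly called and 10 lost the call. Of the 606, 20 had the other sign, all of them uncalled values of *Khsrp*, *Fubp1*, *Fubp3*, *Elavl1*, *Tia1* or *Parn*, and no called value reversed. The choices of transcripts of at least 1000 nt and of fragment length as a covariate were made after seeing the data. Unless stated, the cause was not tested.

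For the decay factors in EPR against mock cells, 1 was called with coding transcripts alone (*Hnrnpd*), 1 with transcripts of at least 1000 nt (*Zfp36*), 0 with the covariate, 5 at an adjusted p under 0.05 with no fold cut-off and 0 beyond a log2 fold change of 1. Of all genes, 3653 of 12208 were called with coding transcripts, 3932 of 14465 with long transcripts and 3134 of 15370 with the covariate. The main fit called 4316 of 15370. In EPRSTOPE against mock cells, 1 was called with no filter (*Zfp36l1*), 2 with coding transcripts (*Zfp36l1* and *Hnrnpd*), 1 with transcripts of at least 1000 nt (*Tia1*) and 6 at an adjusted p under 0.05. Of all genes, 4949 of 32553 were called with no filter, 3687 of 12208 with coding transcripts and 3929 of 14465 with long transcripts. The main fit called 4302 of 15370. No share of all genes is given at an adjusted p under 0.05 or beyond a log2 fold change of 1, so those counts carry no background. Leaving out 1 library gave 1 to 2 calls in EPR cells (1 without mock library 203 or 204 or EPR library 206 or 207), 0 to 1 in EPRSTOPE cells (1 without mock library 203) and 0 in the direct comparison. For their transcripts, DESeq2 called 1 in each comparison with mock, the fit of 2 groups 1 in EPR cells, an adjusted p under 0.05 also 1, and at least 10 counts in every library 1 in EPRSTOPE cells. Leaving out 1 library gave 0 to 1 in EPR cells, the 1 being *Fubp1*-214 without EPRSTOPE library 209. No share of all transcripts is given for these alternatives.

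With an adjusted p under 0.05 and no fold cut-off, the calls with EPR and with EPRSTOPE against mock and in the direct comparison, in this order, were 11, 9 and 5 for RNA-binding proteins, 30, 33 and 20 for the decay machinery, 7, 4 and 4 for microRNA processing and 10, 7 and 9 for regulators, and 21 in the direct comparison of ARE-bearing mRNAs. Beyond a log2 fold change of 1 they were 5, 4 and 0 for the decay machinery, 3, 3 and 2 for regulators, and 13 and 4 for ARE-bearing mRNAs in EPR cells against mock and against EPRSTOPE. No share of all genes is given at these other thresholds, so these counts carry no background. Counts scaled from TPM gave 12 calls of the decay machinery in EPR against mock cells, and in the direct comparison 1 of the decay machinery, 1 regulator and 6 ARE-bearing mRNAs. Of all genes, scaled counts called 3048 and 922 of 15427 in these comparisons, and the main fit 4316 and 2031 of 15370. Coding transcripts alone gave 1 RNA-binding protein and 1 microRNA gene in the direct comparison, where 1662 of 12208 genes were called. At least 10 counts left 3 regulators in EPRSTOPE cells, where fewer genes were tested and 3512 of 11460 were called. For microRNA processing, 1 gene was called in EPR cells with at least 10 counts, counts scaled from TPM, transcripts of at least 1000 nt, the covariate or 2 groups, and in EPRSTOPE cells 1 with no filter, scaled counts or long transcripts and 2 with the covariate. Leaving out 1 library gave 0 to 1 (*Tarbp2*, without EPR library 206) and 0 to 2 (*Ago2* and *Tarbp2*, without EPRSTOPE library 209). For the other lists it gave 3 to 4, 4 and 0 RNA-binding proteins, 17 to 19, 13 to 16 and 3 to 5 decay machinery genes, 5 to 7, 4 to 5 and 4 to 5 regulators and 19 to 21, 22 to 23 and 8 to 11 ARE-bearing mRNAs. The low counts of *Zfp36* (59.5 to 200 per library) limit its precision.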
